A study of Mus musculus with 24 samples.

Results

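Among the 7 AMPKcKO (cKO) libraries of whole mouse Achilles tendon assigned to 3 months of age, 4 carried the transcript of the fluorescent reporter eGFP at more than 200 fragments per kilobase of transcript and 1 M mapped fragments (FPKM) and 3 carried it at 200 FPKM or less. The first set is called reporter-high (cKO female 5, female 6, male 6 and male 7) and the second reporter-low (cKO female 4, male 3 and male 5). The 7 libraries were selected from 24 in the whole series. The members were chosen by the measured eGFP level, so eGFP itself is described without a test. The question was which genes, other than the reporter, differ between knockout tendons with high and with low readings of its transcript.

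All groups came from the Achilles tendon of mice with cage activity. The cKO line lacks AMPKα1, the kinase subunit encoded by Prkaa1, according to the title of the series. The Prkaa1 transcript was still read in every cKO library of 3 months, with the values given below. No source used here named the Cre driver, the reporter allele or the strain. The 5 wildtype libraries of the same age (2 female, 3 male) served as the reference, and the 6 cKO libraries of 1 month (5 reporter-high, 1 reporter-low by the same threshold) were set beside the older ones. The reporter-high set held 2 libraries of each sex and the reporter-low set 1 female and 2 male libraries. The labels named no age for the older libraries, and 3 months was assigned by elimination. Nothing in the labels said that libraries came from separate animals, so p-values measure only the spread between these samples.

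AMPK is a heterotrimeric kinase that senses a falling energy charge in the cell and restrains anabolic metabolism. Scx encodes scleraxis, a basic helix-loop-helix transcription factor of tendon progenitors and tendon fibroblasts, and fluorescent proteins placed under Scx regulatory sequence are in common use to mark tendon cells. A reporter transcript in bulk RNA depends on how many cells carry the transgene and on how active it is in each. In whole tissue, fewer cells of a type and less RNA per cell cannot be told apart.

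Total counts at 3 months ran from 7.32 to 16.6 M per library, and the Pearson r of log2 counts scaled to a library of 1 M (CPM) between libraries from 0.894 to 0.973. Tnmd and Mkx, a membrane protein and a transcription factor that define tendon fibroblasts, were read at 29.0 to 103 CPM and at 14.97 to 60.7 CPM in the 12 libraries, and all 20 genes of the tendon fibroblast list passed the filter on low counts. Prkaa1 was read at 14.8, 18.4, 20.5 and 13.6 CPM in the reporter-high libraries, at 16.2, 17.2 and 19.99 in the reporter-low libraries, and at 13.5, 27.4, 28.0, 28.0 and 21.5 in wildtype. The cKO classes overlapped (log2 fold change −0.04 ± 0.24 SE). Wildtype female 4 lay below all cKO libraries, and the other wildtype libraries lay above all of them. Against wildtype the log2 fold change was −0.45 ± 0.21 for reporter-high and −0.41 ± 0.23 for reporter-low, and neither passed the adjusted threshold. Among the reporter-low libraries, cKO male 5 and cKO male 3 stood far apart from each other, with loadings of 0.59 and −0.30 on the first principal component (32.0% of the variance), the highest and second lowest of the 12 libraries. Values without cKO male 5 or cKO male 3 stand beside several of the results.

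eGFP was read at 296, 287, 329 and 558 FPKM in the 4 reporter-high libraries (mean 368 ± 128 SD, n = 4). The reporter-low libraries had 5.80 (cKO female 4), 1.40 (cKO male 3) and 1.57 FPKM (cKO male 5). The classes were separated by a wide gap, since the members nearest to the threshold lay at 287 and 5.80 FPKM, and all wildtype libraries were listed at 0. At 1 month, 5 cKO libraries lay between 854 and 1256 FPKM and the remaining library, cKO male 1, at 11.8. Each reporter-low library therefore still had a reading above the wildtype value of 0.

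**Figure D1:**
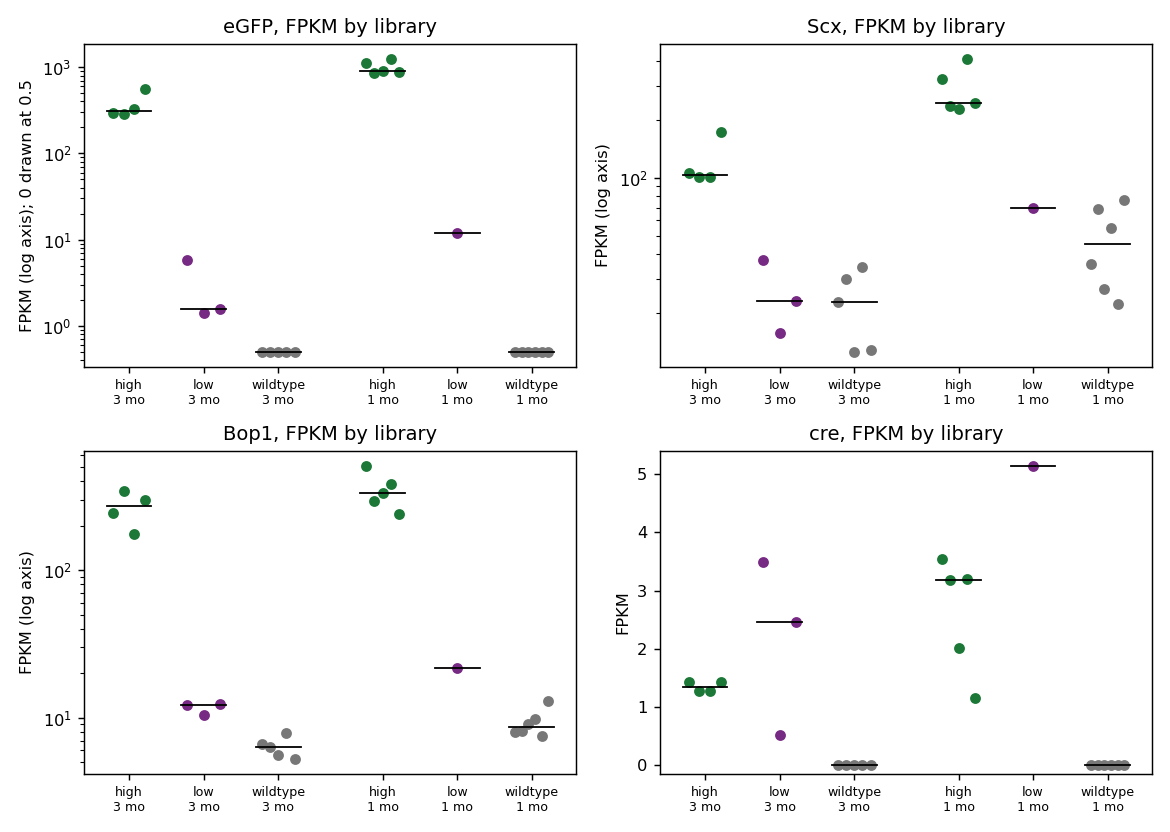
FPKM of eGFP, Scx, Bop1 and cre in each library, by class (high and low: cKO with eGFP above or not above 200 FPKM) and age, with a log axis for all but cre and a line at the class median. The 4 reporter-high libraries of 3 months lie above all other libraries of that age for eGFP, Scx and Bop1, and within the range of the reporter-low libraries for cre.

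The transcript of cre, the recombinase, was not used to form the classes. It was read at 1.43, 1.28, 1.28 and 1.42 FPKM in the reporter-high libraries and at 3.50, 0.51 and 2.46 in the reporter-low libraries, against 0 in wildtype. All 7 cKO libraries thus had a cre reading, and the narrow reporter-high range lay inside the wide reporter-low range. The difference of mean log2(FPKM + 0.1) was −0.29, and an exact permutation test over 35 assignments gave a two-sided p of 0.629. Without cKO female 4 the difference was 0.22. Without cKO male 3 it was −1.07 (exact permutation test over 15 assignments, two-sided p = 0.0667), with the remaining reporter-low readings, 3.50 and 2.46, above the reporter-high range. At 1 month the library of low eGFP had the highest cre reading of the 6, 5.14 FPKM against 1.16 to 3.54. The transgene rows for tdTomato and mCherry were at 0 in all 24 libraries.

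Scx was read at 141, 177, 134 and 207 CPM in the reporter-high libraries (165 ± 33.6 SD, n = 4) and at 30.1, 17.5 and 17.1 CPM in the reporter-low libraries (21.6 ± 7.35 SD, n = 3). Wildtype libraries had 23.3, 23.6, 11.8, 24.3 and 14.4 CPM. Every reporter-high library lay above all others of that age, the reporter-low libraries overlapped with wildtype, and the mean was 7.63-fold higher in the reporter-high class. The log2 fold change was 2.92 ± 0.30 (SE) against reporter-low and 3.10 ± 0.24 against wildtype, and 0.17 ± 0.26 between reporter-low and wildtype. At 1 month the reporter-high libraries had 305 to 703 CPM, the reporter-low library 51.4 and wildtype 22.0 to 64.1.

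Bop1 encodes a nucleolar protein of ribosome assembly. It was read at 241, 400, 193 and 265 CPM in the reporter-high libraries (275 ± 88.6 SD, n = 4), at 18.2, 22.3 and 20.2 CPM in the reporter-low libraries (20.2 ± 2.04 SD, n = 3) and at 13.8, 9.25, 10.7, 12.9 and 11.8 in wildtype. The mean was 13.6-fold higher in the reporter-high class, and no class overlapped with another, with reporter-low between wildtype and reporter-high. The log2 fold change was 3.74 ± 0.27 (SE) against reporter-low and 4.55 ± 0.23 against wildtype. Between reporter-low and wildtype it was 0.82 ± 0.22, which did not pass (edgeR adjusted p = 1). At 1 month the reporter-low library had 29.9 CPM, above the wildtype range of 11.9 to 16.9 and far below the reporter-high range of 302 to 550.

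The relation of Scx and Bop1 to eGFP was already known from these data, and their values are a description rather than independent support. Scx (chromosome 15, 76457452 to 76459458, plus strand, GRCm38) lies wholly within the span of Bop1 (76452989 to 76477277, minus strand). No source used here gave the strand setting of the counting, so reads of the 2 genes may have been shared, which was not tested. Within 100 kb of Scx, 8 other genes were tested, among them Hsf1, which encodes a heat shock transcription factor, and Dgat1, an enzyme of triglyceride synthesis. Their log2 fold changes ran from −2.13 to 0.29 with a lowest unadjusted p of 0.135. Hsf1 had 18.8 to 27.1 CPM in the reporter-high and 16.2 to 21.2 CPM in the reporter-low libraries.

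**Figure D2:**
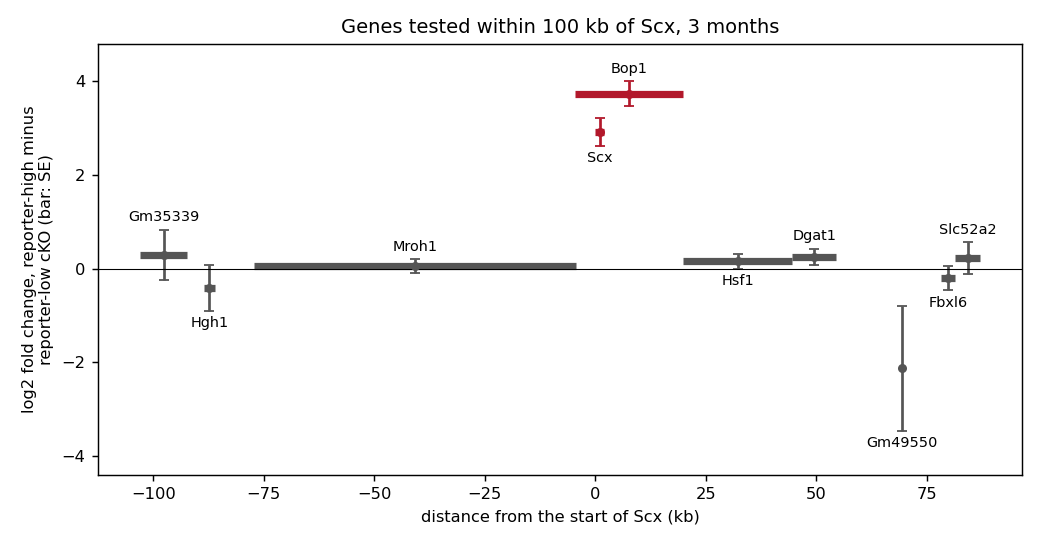
Log2 fold change (reporter-high minus reporter-low cKO, 3 months, bars give the SE) of the 10 tested genes within 100 kb of Scx, against distance from the start of Scx in kb, with the horizontal bars giving each gene's span. Scx and Bop1 lie at 2.92 and 3.74 and the other 8 genes between −2.13 and 0.29.

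The FPKM of Scx per FPKM of eGFP lay between 0.307 and 0.357 in the 4 reporter-high libraries of 3 months and between 0.253 and 0.329 in the 5 of 1 month. The ratio of Bop1 to eGFP was more variable, at 0.821, 1.19, 0.532 and 0.535 at 3 months, and was lower at 1 month, at 0.273 to 0.458. The ages overlapped for the first ratio and not for the second. Both ratios are descriptions without a test, because eGFP chose the libraries.

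Of 17891 genes tested by edgeR's quasi-likelihood method, 2 (0.0112%) passed a Benjamini-Hochberg adjusted p of 0.05 between the classes, and both were the genes just described, Bop1 and Scx. No gene was called lower. Scx did not pass with the 7 cKO libraries alone (log2 fold change 2.90, edgeR adjusted p = 0.0811) or without cKO male 5 (2.83, 0.0519). With limma it did not pass on log2(FPKM + 0.1) (2.23, adjusted p = 0.530) or on log2(FPKM + 1) (2.19, 0.482). At an unadjusted p under 0.05 there were 773 genes with higher values in the reporter-high class (4.32%) and 894 with lower values (5%), where 895 in both directions together would be met by chance. Leaving out cKO male 5 lowered the total from 1667 to 868, and leaving out cKO male 3 raised it to 3467. In 848 genes every reporter-high library lay above every reporter-low library (4.74%), and in 677 genes below (3.78%). DESeq2 called 48 genes (0.268%), 27 higher and 21 lower. Of the 27, 25 were protein-coding, and of the 21, 14 were small nuclear or nucleolar RNAs, 5 were pseudogenes and 2 were protein-coding. Among all 17891 genes tested, 13818 were protein-coding, 87 were small nucleolar RNAs and 44 small nuclear RNAs. A further 1188 were processed pseudogenes, not counting transcribed ones.

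The same fit called 2 genes between reporter-high and wildtype (0.0112%), again Scx and Bop1, and 0 between reporter-low and wildtype (0%). Scx was not called against wildtype by limma on either FPKM scale, whereas Bop1 was. These comparisons share the wildtype libraries. At an unadjusted p under 0.05 the first had 1060 genes and the second 368, and DESeq2 called 9 genes in the first and 0 in the second.

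Von Willebrand factor, a clotting glycoprotein made by endothelial cells, had the smallest p among genes higher in the reporter-high class after Bop1 and Scx. Vwf was read at 71.8, 95.4, 106 and 89.4 CPM in the reporter-high, 47.4, 43.6 and 31.4 in the reporter-low and 70.1, 67.2, 56.0, 66.6 and 54.7 CPM in the wildtype libraries. The reporter-high and reporter-low libraries did not overlap, and wildtype lay between them. The log2 fold change was 1.15 ± 0.19 (SE, edgeR adjusted p = 0.248; DESeq2 adjusted p = 6.37e-05). It ran from 1.00 to 1.27 as each of the 12 libraries was left out. At 1 month the reporter-low library (35.3 CPM) lay inside the reporter-high range of 24.2 to 53.4.

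Lmod1 encodes leiomodin 1, an actin-nucleating protein of smooth muscle. Its libraries had 9.77, 15.1, 21.4 and 11.4 CPM in the reporter-high, 4.83, 6.28 and 4.44 in the reporter-low and 7.82 to 11.7 CPM in the wildtype class. The log2 fold change was 1.5 ± 0.27 (edgeR adjusted p = 0.447; DESeq2 adjusted p = 0.00212). Dll1, a ligand of Notch receptors, had 8.54, 7.98, 7.19 and 7.80 CPM against 3.60, 4.42 and 2.86 in the reporter-low and 4.66 to 6.98 in the wildtype libraries. Its log2 fold change was 1.11 ± 0.21 (edgeR adjusted p = 0.470; DESeq2 adjusted p = 0.00714). Both genes separated the 2 cKO classes without overlap, with the reporter-low libraries also below the wildtype range, and neither passed by edgeR against wildtype.

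Of the 13 genes of the endothelial list, 12 had a positive log2 fold change between the classes (median 0.39, against −0.007 over all genes tested), and none passed. The unadjusted p was under 0.05 for 4, all higher, against 4.32% of all genes tested in that direction. They were Vwf, Plvap (0.99 ± 0.25), a protein of fenestral diaphragms, Egfl7 (0.56 ± 0.21), a secreted vascular factor, and Eng (0.46 ± 0.20), a co-receptor for TGF-beta ligands. The list's mean log2 CPM was 5.31 to 5.47 in the reporter-high libraries, 4.69 in both cKO female 4 and cKO male 5, and 5.43 in cKO male 3, so that 2 of the 3 reporter-low libraries lay below the reporter-high range. The median was 0.26 without cKO male 5, 0.71 without cKO male 3, and 0.08 with the small nuclear and nucleolar RNA level as a covariate. Of the 11 pericyte and smooth muscle genes, 7 were positive (median 0.18, and 0.02 without cKO male 5 or without cKO male 6) and none passed. Myh11, smooth muscle myosin, was read at 142, 129, 264 and 155 CPM against 83.5, 59.2 and 84.5 CPM (log2 fold change 1.19 ± 0.32, edgeR adjusted p = 0.470). At an unadjusted p under 0.05, 1 gene of this list was higher, Myh11, and 1 was lower, against 4.32% and 5% of all genes tested. Every reporter-high library lay above every reporter-low library for 1 gene and below for 1 gene, against 4.74% and 3.78% of all genes tested.

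Fast-twitch skeletal muscle genes had higher values in most reporter-high libraries, with a wide spread between libraries. Myh4, the myosin heavy chain of fast glycolytic fibres, was read at 1902, 66670, 27970 and 6032 CPM in the reporter-high, 116, 10.3 and 22.0 CPM in the reporter-low and 3679, 355, 2280, 763 and 18450 CPM in the wildtype libraries. All reporter-low libraries lay below every reporter-high and every wildtype library, while the latter 2 classes overlapped. The log2 fold change was 9.07 ± 2.08 against reporter-low (edgeR adjusted p = 0.470), 2.07 ± 1.33 against wildtype, and −7.01 ± 1.96 between reporter-low and wildtype, and none passed. Myh4 at 1 month ranged from 65.7 to 31000 CPM in the 5 reporter-high libraries, and the reporter-low library, at 328 CPM, lay inside that range.

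Actn3, the alpha-actinin of fast fibres, was read at 183, 3824, 1709 and 426 CPM in the reporter-high and 39.8, 181 and 18.3 CPM in the reporter-low libraries, with a log2 fold change of 4.53 ± 1.51 (edgeR adjusted p = 0.470). The lowest reporter-high library, cKO female 5, lay just above the highest reporter-low library, cKO male 3. The calcium buffer parvalbumin (Pvalb) had a log2 fold change of 3.94 ± 1.26. Of the 11 fast-fibre genes, 10 were positive (median 1.34), and no gene of the list passed. The median was 0.80 without cKO female 6 and 2.12 without cKO male 3, and −0.60 with the list's own level as a covariate. Slow-fibre genes did not follow: 3 of 10 were positive (median −0.36). Myh7, the myosin of slow fibres, was read at 14590, 6791, 7007 and 7301 CPM in the reporter-high and at 4976, 15540 and 1054 CPM in the reporter-low libraries, which overlapped (log2 fold change 0.16 ± 0.88). Without cKO male 3 the slow-fibre median was 0.63, the opposite sign. The whole muscle list, 24 of 24 genes tested, had a mean log2 CPM of 10.46 to 11.60 in the reporter-high, 8.79 to 10.91 in the reporter-low and 9.28 to 11.52 in the wildtype libraries. The fast-fibre list had 10.26 to 12.26 in the reporter-high and 7.95 to 9.87 in the reporter-low libraries, without overlap. A fit with the fast-fibre level as a covariate, here or below, therefore cannot fully separate that level from the class. The part of muscle in the other results was not tested.

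**Figure D3:**
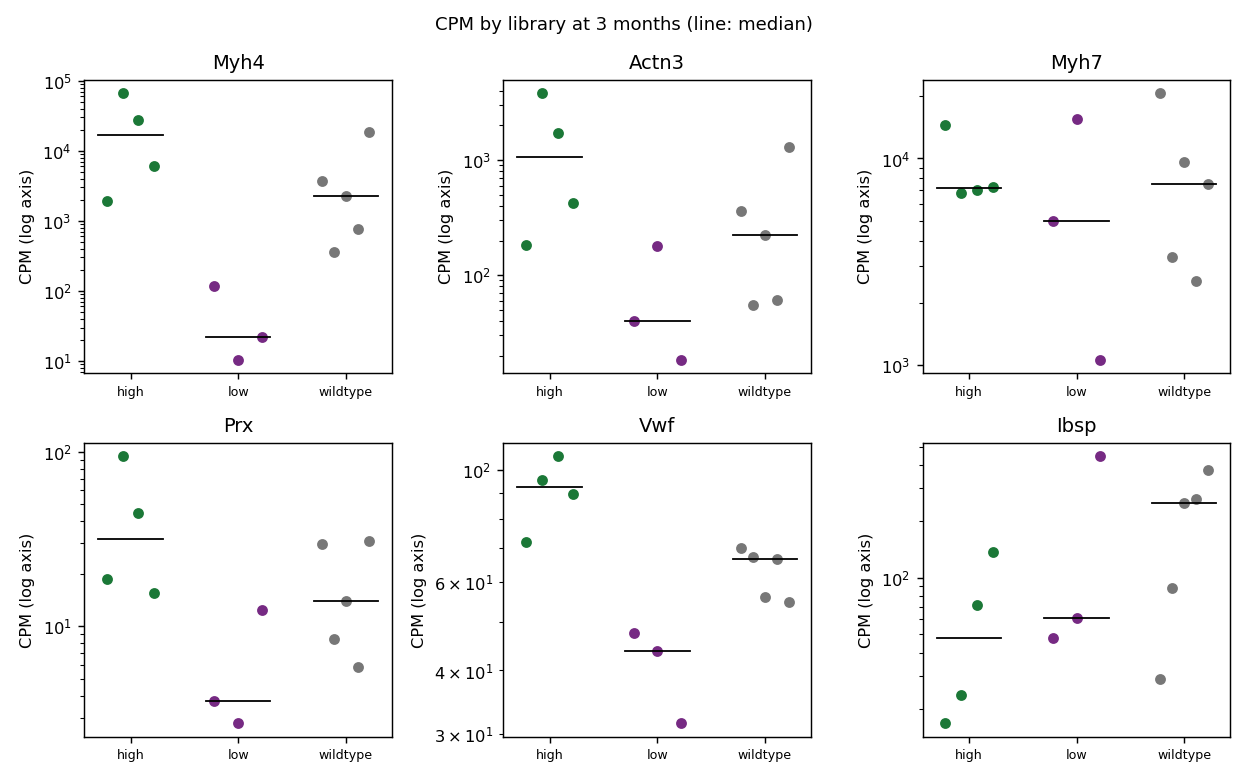
CPM (log axis) by library at 3 months of 2 fast-fibre genes (Myh4, Actn3), a slow-fibre gene (Myh7), a Schwann cell gene (Prx), an endothelial gene (Vwf) and a mineral gene (Ibsp), with a line at the class median. Reporter-high and reporter-low libraries do not overlap for Myh4, Actn3, Prx and Vwf and overlap for Myh7 and Ibsp.

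Of the 7 subunit genes of AMPK, none passed and 2 had an unadjusted p under 0.05, both higher, against 4.32% of all genes tested in that direction. Prkag3, the gamma subunit found mainly in fast skeletal muscle, was read at 5.13, 69.3, 31.4 and 14.5 CPM against 2.60, 6.92 and 2.12 CPM, with cKO female 5 inside the reporter-low range (3.21 ± 1.18, unadjusted p = 0.0189, edgeR adjusted p = 0.470). Prkab2, a beta subunit, was read at 32.1, 141, 89.4 and 28.6 CPM against 18.2, 33.4 and 19.4 (1.71 ± 0.65, unadjusted p = 0.0227, edgeR adjusted p = 0.482). The libraries with the highest Prkag3 and Prkab2 were those with the highest Myh4. With the fast-fibre level as a covariate the log2 fold changes were −0.36 and −0.28. That level did not overlap between the cKO classes, so this fit cannot fully separate it from the class, and its part was not tested. The other 4 subunit genes besides Prkaa1 had log2 fold changes of −0.14 to 0.25. Of 25 regulators and substrates of AMPK tested, 13 were positive and 12 negative (median 0.01).

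Schwann cell and nerve genes were positive in 10 of 12 cases (median 1.44), and none passed. The list's mean log2 CPM was 2.79 to 4.28 in the reporter-high and 1.46, 1.08 and 3.31 (cKO male 5) in the reporter-low libraries, which overlapped. Wildtype libraries had 2.20 to 3.53. The median was 1.03 without cKO male 3 and ran from 0.94 (without cKO female 6) to 1.94 (without cKO male 5) as single libraries were left out. Prx encodes periaxin, a protein of myelinating Schwann cells, and was read at 18.7, 93.8, 44.7 and 15.5 CPM in the reporter-high, 3.75, 2.78 and 12.4 in the reporter-low and 5.86 to 30.8 CPM in the wildtype libraries. The cKO classes did not overlap, but wildtype spanned the gap between them (2.72 ± 0.85, unadjusted p = 0.00778, edgeR adjusted p = 0.470). Mbp, myelin basic protein, differed by 1.64 ± 0.66. Egr2, which encodes a transcription factor of myelination that is also active in tendon, was at 3.60 to 4.22 CPM in the reporter-high and 0.784 to 1.80 CPM in the reporter-low libraries (1.5 ± 0.50, edgeR adjusted p = 0.470). With the fast-fibre level as a covariate the list's median was 0.43.

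Of the 20 genes of the tendon fibroblast list, 11 were positive and 9 negative (median 0.07), and 1 passed, Scx. Tnmd differed by 0.07 ± 0.39 and Mkx by −0.25 ± 0.35. The list's mean log2 CPM was 6.43 to 6.85 in the reporter-high and 5.60 (cKO male 3), 6.65 and 6.77 in the reporter-low libraries, which overlapped. Without cKO male 3 the median was −0.30. It was 0.53, 0.56 and 0.73 with the muscle, the small RNA and the fast-fibre level as a covariate. Col22a1, a collagen of tissue junctions such as the one between muscle and tendon, was the member of smallest p after Scx, at 89.7, 224, 133 and 127 CPM against 59.8, 71.7 and 27.5 (1.42 ± 0.46, edgeR adjusted p = 0.470).

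Among 17 collagen genes, 15 were positive (median 0.38) and none passed. The median was 0.18 without cKO male 7 and 0.97 with the fast-fibre level as a covariate. Col11a2, a fibrillar collagen of cartilage and young tendon, had 150, 302, 124 and 272 CPM against 186, 43.7 and 37.8, with cKO female 4 inside the reporter-high range (1.40 ± 0.47). Col4a2, a basement membrane collagen, differed by 0.78 ± 0.27. Matn4, a matrilin of the extracellular matrix, was read at 7.11, 14.7, 9.61 and 10.5 CPM against 5.41, 2.21 and 2.54, and wildtype at 4.90 to 10.1 CPM overlapped with both (1.61 ± 0.36, edgeR adjusted p = 0.470; DESeq2 adjusted p = 0.0226). It belongs to the chondrocyte and enthesis list, where 5 of 11 genes tested were positive (median −0.11) and none passed. At an unadjusted p under 0.05, 1 gene of that list was higher, Matn4, against 4.32% of all genes tested. In the other direction there were 2, Sox9 (−0.43 ± 0.18) and Clec3a (−1.16 ± 0.49), against 5% of all genes tested. Vcan, the large proteoglycan versican, was at 71.4 to 191 CPM in the reporter-high and 128 to 451 CPM in the reporter-low libraries (−1.06 ± 0.40, edgeR adjusted p = 0.482). The Vcan difference was −0.61 without cKO male 5, and −0.28, −0.25 and −0.01 with the muscle, the small RNA and the fast-fibre level as a covariate. Collagen processing enzymes (11 of 26 positive, median −0.02) and proteoglycans (12 of 28, median −0.10) were divided between the directions.

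Genes of bone mineral were negative in all 9 tested members of the list (median −1.26), and none passed. Ibsp, bone sialoprotein, was read at 16.8, 23.7, 72.0 and 138 CPM in the reporter-high, 47.9, 61.3 and 444 CPM in the reporter-low and 28.8 to 374 CPM in the wildtype libraries, and the classes overlapped (−1.26 ± 0.54, edgeR adjusted p = 0.511). The phosphatase Alpl differed by −1.65 ± 0.74. Without cKO male 5 Ibsp differed by −0.44 and Alpl by −0.24. The median of the list was −0.34 without that library, and with the small nuclear and nucleolar RNA level as a covariate it was 0.05.

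Macrophage markers (1 of 14 positive, median −0.87), mast cell markers (1 of 8, −0.87) and red blood cell genes (0 of 5, −1.71) also leaned to higher values in the reporter-low class, and none of these genes passed. C1qc, a complement subunit made by macrophages, was read at 30.7, 20.9, 23.5 and 36.1 CPM against 61.1, 20.3 and 84.3, with cKO male 3 below all 4 reporter-high libraries (−0.98 ± 0.44, edgeR adjusted p = 0.533). The beta-globin gene Hbb-bt had 0.376 to 2.26 CPM in the reporter-high libraries and 1.95, 1.57 and 20.5 CPM in the reporter-low libraries. Without cKO male 5 C1qc differed by −0.52, and the medians were −0.42 for macrophages, 0.24 for mast cells and −0.70 for red blood cells. With the small nuclear and nucleolar RNA level as a covariate the macrophage median was 0.19. Of the neutrophil markers 1 of 10 passed the filter on low counts, and of the T, B and NK cell markers 3 of 14.

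In energy metabolism, 27 of 31 nuclear genes of oxidative phosphorylation were negative (median −0.37), as were 20 of 22 genes of fatty acid oxidation (median −0.29), while 14 of 20 glycolysis genes were positive (median 0.47), and no gene of these lists passed. Ndufa4, a subunit associated with cytochrome oxidase, was read at 38.7, 39.0, 26.7 and 24.9 CPM against 55.5, 58.0 and 66.1 (−0.93 ± 0.32, edgeR adjusted p = 0.470). Fabp3, a fatty acid carrier of oxidative muscle, was read at 448, 212, 259 and 311 CPM against 679, 773 and 516 (−1.13 ± 0.39, edgeR adjusted p = 0.470). Both genes separated the 2 cKO classes, and wildtype overlapped with both (24.2 to 80.4 and 216 to 760 CPM). Without cKO male 3 the oxidative phosphorylation median was −0.01 and the fatty acid oxidation median 0.18. The glycolysis median was 0.88 without cKO male 3 and 0.17 without cKO female 6, and with the fast-fibre level as a covariate it was −0.56. Pfkfb3, a glycolytic regulator phosphorylated by AMPK, had 92.2, 368, 291 and 172 CPM against 117, 122 and 118 (0.98 ± 0.39, edgeR adjusted p = 0.496).

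**Figure D4:**
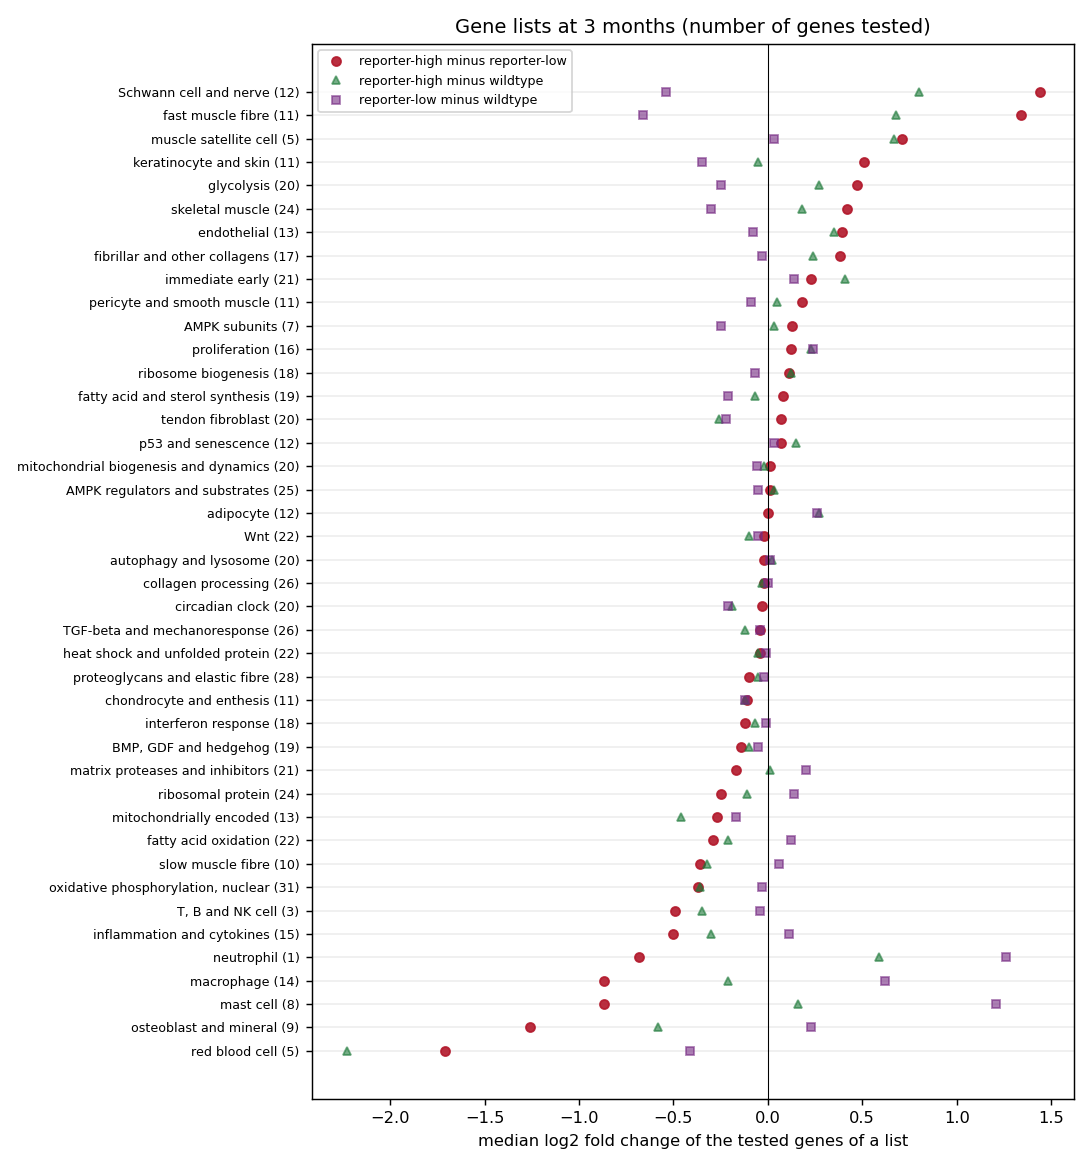
Median log2 fold change of the tested genes of each of the 42 lists at 3 months for the 3 comparisons, which share libraries. Between reporter-high and reporter-low, the Schwann cell and fast-fibre lists lie at 1.44 and 1.34, the red blood cell and bone mineral lists at −1.71 and −1.26, and the tendon fibroblast list at 0.07.

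The protein-coding genes of smallest p against wildtype, after Scx and Bop1, were Vwa1, Amotl2 and Hbegf, and all 3 were higher in the reporter-high libraries. Hbegf, an EGF receptor ligand, was read at 15.9, 23.5, 18.6 and 17.7 CPM in the reporter-high, 12.5, 11.1 and 8.88 in the reporter-low and 9.50 to 12.3 CPM in the wildtype libraries. The reporter-high libraries lay above all others, by 0.79 ± 0.18 against reporter-low (edgeR adjusted p = 0.470) and 0.76 ± 0.16 against wildtype. Amotl2, a junction protein that binds the transcriptional coactivator YAP, was read at 115, 141, 153 and 141 CPM, 87.4, 98.3 and 78.3 CPM, and 65.1 to 95.4 CPM in the same order. Vwa1, a protein of the pericellular matrix, was at 15.9 to 20.6 CPM, 8.99 to 13.1 CPM and 9.002 to 11.8 CPM. For these 3 genes DESeq2 called the difference from wildtype (adjusted p of 0.0358, 0.00485 and 0.0124) and edgeR did not. Of 21 immediate early genes tested, 16 were positive (median 0.23, and 0.00 without cKO female 5), and Fosl2, a subunit of the AP-1 transcription factor, was at 52.5 to 66.4 CPM against 36.6 to 39.4 CPM (0.57 ± 0.21, edgeR adjusted p = 0.470).

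Ribosomal protein genes were negative in 22 of 24 cases (median −0.25; none passed), in contrast to the ribosome biogenesis list that holds Bop1, where 13 of 18 were positive (median 0.11) and 1 passed, Bop1. Rpl11 was read at 88.6, 78.5, 88.7 and 90.6 CPM against 135, 94.98 and 138 (−0.51 ± 0.18), without overlap, and Rpl32 differed by −0.79 ± 0.29 (−0.36 without cKO male 5). Rpl32 in cKO male 3 (109 CPM) lay inside the reporter-high range of 107 to 117 CPM. Dkc1, the pseudouridine synthase of the H/ACA small nucleolar particle, was at 12.4 to 20.1 CPM against 9.44 to 13.6 (0.59 ± 0.20, edgeR adjusted p = 0.470).

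Small non-coding RNAs had negative log2 fold changes between the classes with few exceptions, but few of them separated the classes without overlap. Small nucleolar RNAs guide chemical modification of ribosomal RNA and small nuclear RNAs serve in splicing, and most lack the poly(A) tail of messenger RNA. Of 87 small nucleolar RNA genes tested, 83 were lower in the reporter-high class (median −2.14), 56 of them at an unadjusted p under 0.05, against 5% of all genes tested in that direction, and of 44 small nuclear RNA genes 41 were lower (median −1.80). Every reporter-high library lay below every reporter-low library for 8 of the 87 and 7 of the 44, against 3.78% of all genes tested. Such shares are a description, because genes of a library share its composition and are not independent. No gene of either kind passed. Their summed small nucleolar RNA level was 300, 501, 379 and 464 CPM in the reporter-high libraries, 1035 (cKO female 4), 377 (cKO male 3) and 2058 CPM (cKO male 5) in the reporter-low libraries, and 385 to 1437 CPM in wildtype. cKO male 3 thus lay inside the reporter-high range and wildtype overlapped with both classes. Without cKO male 5 the median was −1.20 for each kind. At 1 month the reporter-low library had 1075 CPM of small nucleolar RNA against 401 to 906 CPM in the reporter-high libraries, and lay inside the wildtype range of 510 to 1164 CPM. Its small nuclear RNA level, 3504 CPM, lay inside the reporter-high range of 1540 to 3604 CPM.

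Snord8, a small nucleolar RNA and the gene of smallest p in this direction under the naming rule, was read at 0.820, 0.452, 0.648 and 0.927 CPM against 3.53, 1.21 and 12.7 (−2.84 ± 0.66, edgeR adjusted p = 0.470; DESeq2 adjusted p = 0.0164). Without cKO male 5 it differed by −1.76. Snora74a was at 1.43 to 2.46 CPM against 4.35 to 7.19 (−1.42 ± 0.34). Histone genes of the replication-dependent kind, whose messages also end without a poly(A) tail, were named as well. H2ac19 was read at 20.9, 12.8, 9.20 and 19.3 CPM against 37.8, 36.3 and 47.9, with wildtype at 18.6 to 47.4 CPM (−1.43 ± 0.33, edgeR adjusted p = 0.470; DESeq2 adjusted p = 0.0363), and H3c11 at 0.472 to 1.43 against 1.57 to 4.23 CPM (−1.92 ± 0.47, and −1.28 without cKO male 5). The remaining gene named in that direction was Il11ra2, whose symbol is shared by 2 gene identifiers in the table, and its level is uncertain.

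**Figure D5:**
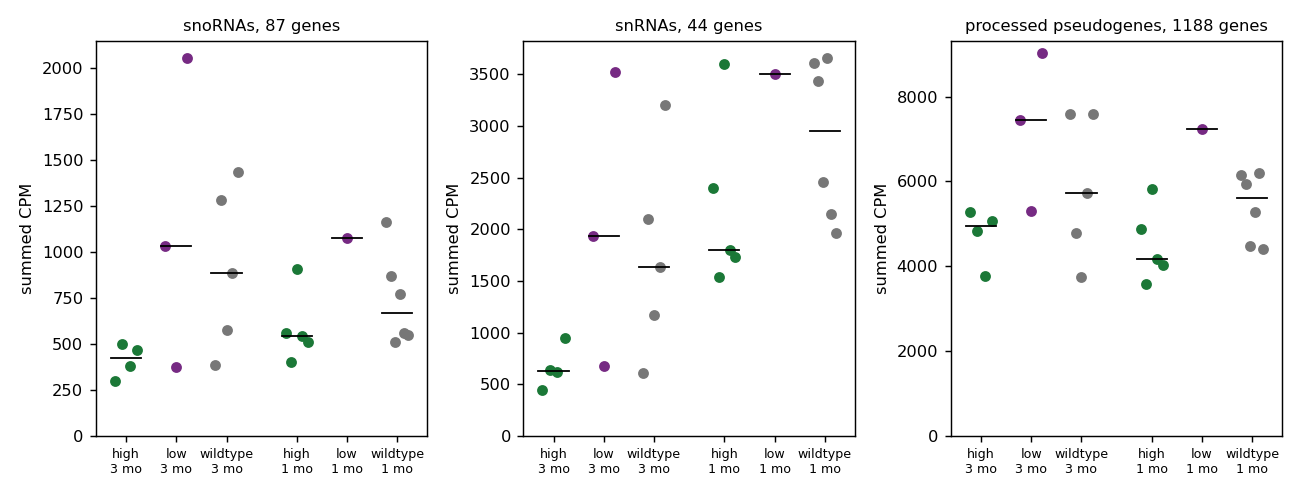
Summed CPM by library of small nucleolar RNAs, small nuclear RNAs and processed pseudogenes, by class and age, with a line at the class median. The reporter-low library cKO male 3 lies at 377 CPM of small nucleolar RNA, among the 4 reporter-high libraries (300 to 501), and the other 2 reporter-low libraries lie at 1035 and 2058.

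Processed pseudogenes, copies of spliced messages that share sequence with their parent genes, were lower in 955 of 1188 cases (median −0.64; none passed). Their counts depend on how reads were divided between the copies. Rpl15-ps3, named after its values were seen, had the lowest adjusted p after Bop1 and Scx (edgeR, 0.0908). It had 0 counts in all 4 reporter-high libraries, where 0 allows up to 0.183 to 0.267 CPM (3 counts, counting error only). The reporter-low libraries had 16, 14 and 14 counts (1.15, 0.998 and 1.48 CPM), and the wildtype libraries 5 to 9 counts (0.310 to 0.872 CPM). limma-voom called it (adjusted p = 0.00718), as did DESeq2 (6.22e-05) and edgeR without the sex term (0.0268). At 1 month it was at 0 to 1.01 CPM in the reporter-high libraries, and the reporter-low library, at 0.396 CPM, lay inside that range.

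The cKO libraries of 1 month were not used to form the comparison. Their lone reporter-low library lay below all 5 reporter-high libraries for 19.6% of all genes tested and above all 5 for 22.2%. Among the 773 genes with higher values in the reporter-high class at 3 months (unadjusted p under 0.05), it lay below all 5 for 329 (42.6%). Among the 894 with lower values, it lay above all 5 for 524 (58.6%). Genes of a library share its depth and composition and are not independent, and a single library allows no test. Of the genes above, Dll1 (4.99 CPM against 5.91 to 11.1), Prx (4.44 against 8.03 to 18.7), Vwa1 (7.21 against 12.8 to 14.8) and Amotl2 (58.1 against 78.8 to 132) lay outside on the same side as at 3 months. So did Scx, Bop1, Prkab2, Col4a2, Snord8, H2ac19 and Vcan. Lmod1 (6.18 against 3.99 to 9.28), Hbegf (28.0 against 17.0 to 29.7) and Matn4 (19.2 against 13.6 to 107) lay inside the range. Vwf, Myh4, Actn3, Pvalb, Egr2, Fosl2, Col22a1, Col11a2, Ndufa4 and Fabp3 lay inside as well. The same held for Prkag3, Snora74a, H3c11, Ibsp and Alpl. Pfkfb3 (84.9 against 59.1 to 74.7 CPM) lay outside on the opposite side. Other genes described above are not listed here.

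The genes whose log2 CPM followed eGFP most closely over the 13 cKO libraries of both ages were Anapc2, a subunit of the anaphase-promoting complex (Spearman rho 0.97), Scx (0.96), Ing1, a chromatin reader of the ING family (0.95), Hspg2, the basement membrane proteoglycan perlecan (0.94) and Ppfibp1, a liprin (0.92). The libraries share the age difference in eGFP, so these values are given without a p. The differences between the classes at 3 months were small apart from Scx. Anapc2 was read at 47.2, 50.8, 52.0 and 52.9 CPM against 45.3, 38.5 and 44.2 (0.25 ± 0.12), Ing1 differed by 0.35 ± 0.15, Hspg2 by 0.32 ± 0.21 and Ppfibp1 by 0.47 ± 0.15, and none of the 4 passed.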

How the data were processed

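Libraries of total RNA from Achilles tendon were sequenced, all labelled as 1 batch. Per the submitters' processing notes, the build was GRCm38 (mm10) and the tools were RSEM 1.3.3, STAR 2.7.8a, cutadapt 2.3 and FastQC 0.11.8, without their roles. The authors deposited expected counts per gene, in whole numbers, and FPKM values scaled to length and mapped fragments, the latter with the transgene rows.

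Classes were formed from the eGFP row of the FPKM table, which entered no gene test. In R 4.3.3, edgeR 4.0.16 fitted the 12 libraries of 3 months (filterByExpr with minimum count 10 and total 15, TMM, a mean per class plus sex, 8 residual degrees of freedom). The threshold was a p of 0.05 after Benjamini-Hochberg adjustment. The coefficient of variation was 29.9%. The SE is the log2 fold change divided by the root of F. Printed CPM were scaled over all 24 libraries. The procedure was tested on simulated data. Alternatives used DESeq2 1.42.0 and limma 3.58.1 (voom, and log2 FPKM with pseudocounts of 0.1 and 1). Gene types and positions come from GENCODE M21. Figures used Python 3.11.15 and matplotlib 3.10.9.

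Members, the 42 lists (651 of 712 genes tested) and alternatives were chosen with earlier results of these data known. The rule names the AMPK subunits, Scx, Bop1, called genes with at least 1 CPM (where fewer than 5 pass in a direction, the 5 of smallest p), up to 4 genes of smallest p per list, and the 5 genes most like eGFP. Tnmd, Mkx, Myh7 and Rpl15-ps3 were added, and some genes the rule takes are not described.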

Additional observations from a re-analysis of the deposited data

Results flagged for a closer look

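Libraries were compared with the others of their class by Dixon's test at the 95% level for 28 genes whose values are printed by library and for the cre reading; eGFP, which chose the classes, was not tested. Of 86 groups, 16 held a library far from the rest. Chance gives about 1 in 20 groups where groups are independent and values are spread normally. These groups share libraries and the muscle genes spread unevenly, so that rate need not hold here. Several of these flags fall on the same library.

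At 3 months, Myh7 in cKO female 5 was 14590 CPM, against 6791 to 7301 in the other 3 reporter-high libraries. In wildtype male 6, Myh4 was 18450 CPM (the others 355 to 3679), Actn3 was 1288 CPM (55.5 to 365) and Prkag3, the AMPK gamma subunit of fast muscle, was 42.9 CPM (1.74 to 12.2). Pfkfb3 in wildtype male 5 was 166 CPM, against 85.5 to 99.7 in the other 4. Rpl11, a ribosomal protein gene, was 78.5 CPM in cKO female 6, against 88.6 to 90.6 in the other reporter-high libraries.

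At 1 month, cKO male 2 stood apart from the other 4 reporter-high libraries in 8 genes. Scx was 703 CPM there against 305 to 390, Myh4 31000 against 65.7 to 5733, Actn3 1576 against 59.9 to 496, and Prkag3 78.4 against 1.26 to 20.5. Prkab2 was 74.5 CPM against 17.7 to 33.3, Amotl2 132 against 78.8 to 87.8, Matn4 107 against 13.6 to 25.2, and Col22a1 607 against 54.9 to 121. Prkaa1 in cKO male 3 of that age was 21.3 CPM against 15.5 to 17.0, and Rpl11 in cKO female 1 was 114 CPM against 79.8 to 88.2.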

How the results depend on the processing

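Between the cKO classes, 48 genes were called by DESeq2, 1 by edgeR on the 7 cKO libraries alone and 807 by edgeR with no low-count filter, against 2 in the reported fit. Of the 807, 781 were genes that the filter keeps. Without the filter the prior degrees of freedom were infinite (3.95 with it), so a gene's own spread no longer entered its test. Leaving out 1 library at a time gave 1 to 7 calls, with 7 without cKO male 3 (Scx, Bop1 and the small RNAs Snord8, Gm24525, Gm24871, Gm25313 and Gm47285) and 1, Bop1, without cKO male 5. Asb5 was called lower with the muscle level as a covariate (log2 fold change −1.27, edgeR adjusted p = 0.0267). Against wildtype, the reporter-high class had 9 calls by DESeq2, 1 on log2(FPKM + 1) and 421 with no filter, and the reporter-low class 72 with no filter. Apart from the filter, where calls moved the cause was not tested. The cre difference was 0.22 without cKO female 4 and −1.07 to 0.22 over the 7 libraries left out. No paired analysis was possible because the reporter-high and reporter-low libraries shared only 1 replicate number.

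Scx and Bop1 were positive under all alternatives run. Signs turned for Prkaa1 (0.11 with the muscle, 0.15 with the small RNA and 0.09 with the fast-fibre covariate, 0.01 without cKO male 5, 0.10 without cKO male 7, and −0.14 to 0.10 over the libraries left out), Prkab2 (−0.28) and Prkag3 (−0.36, both with the fast-fibre covariate). They turned for Myh7 (−0.45, −0.54 and −0.89 with the muscle, small RNA and fast-fibre covariates, −0.28, −0.08 and −0.32 without cKO female 4, female 5 or male 5, and −0.32 to 1.81 over the libraries left out). Mkx turned to 0.32, 0.49 and 0.47 with those covariates and to 0.20 without cKO female 4 (−0.60 to 0.20 over the libraries left out), and Tnmd to −0.28 without cKO male 3 and −0.04 without cKO male 7 (−0.28 to 0.40). With the small RNA covariate Ibsp turned to 0.35 and C1qc to 0.19, and with the fast-fibre covariate C1qc turned to 0.13. The covariates of small RNA and fast fibres were chosen after seeing the data. The fast-fibre level did not overlap between the cKO classes, so fits that carry it cannot fully separate it from the class. With 4 against 3 libraries and a reporter-low class whose members differ widely, differences of moderate size may not have been detectable.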
